A study of Mus musculus with 15 samples.

Results

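The genes of T cell identity and T cell receptor signalling were followed in mouse whole blood 6 h after a dose of ABBV-075. They were taken as a set of 34 named genes: the chains of the CD3 complex, the coreceptors, surface receptors of adhesion and costimulation, the kinases and adaptors next to the receptor, and the transcription factors of the lineage. A gene was represented by the probe set annotated with it alone that had the highest mean over the arrays, and 32 of the 34 genes had such a probe set, among 18193 genes in all. Lck and Tcf7 were not analysed here. Values below an intensity of 16, which is 4 on the log2 scale, were set to that floor. A gene was tested where it lay above the floor on at least 5 of the 15 arrays, which held for 27 of the 32 genes and for 12499 of the 18193.

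The 15 Affymetrix arrays formed 3 groups of 5, from mice given vehicle, ABBV-075 at 1 mg/kg or ABBV-075 at 5 mg/kg. The sample titles give a group and a replicate number, and each array was taken as blood total RNA from 1 mouse. ABBV-075, also known as mivebresib, inhibits proteins of the BET family, readers of histone acetylation that recruit the machinery of transcription elongation. Strain, sex, age and route of dosing are not given in the sources used here. In its title the series states a search for blood markers of the response to the compound. Blood is a mixture of cells, so a changed share of T cells and changed RNA per T cell cannot be told apart in any value below.

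A T cell recognises antigen through its receptor, whose signal is carried into the cell by the CD3 chains. Lck phosphorylates these chains, Zap70 docks on them and phosphorylates the adaptor Lat, and from there calcium, protein kinase C and Ras signals reach the nucleus. Not every gene of the set is private to T cells: natural killer (NK) cells also use Cd247, Zap70, Lat and Fyn, platelets contain Lat, and Prkcq, Lef1 and Bcl11b have roles in other tissues.

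Promoter sequence is shown for the 4 CD3 genes, which encode the chains of the CD3 complex. Of these, 3 had the highest mean differences from vehicle at 5 mg/kg. The windows run from 250 bases before to 50 bases from the start site on, in the RefSeq annotation of GRCm38.p6, written 5′ to 3′ on the strand of the gene. Capitals mark matches on either strand to cores of factor families that act in T cells: TGTGGT for RUNX, GGAAGT for ETS, CTTTGA for TCF and LEF, and AGATAA for GATA. The matches do not overlap each other.
Cd3g, chr9:44980382-44980681, minus strand: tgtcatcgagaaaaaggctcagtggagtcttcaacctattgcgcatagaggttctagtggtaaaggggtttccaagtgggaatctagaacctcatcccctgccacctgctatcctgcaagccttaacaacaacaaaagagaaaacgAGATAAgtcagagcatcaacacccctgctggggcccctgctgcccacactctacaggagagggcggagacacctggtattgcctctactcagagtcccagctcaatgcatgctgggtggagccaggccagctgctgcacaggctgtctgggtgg
Cd3d, chr9:44981536-44981835, plus strand: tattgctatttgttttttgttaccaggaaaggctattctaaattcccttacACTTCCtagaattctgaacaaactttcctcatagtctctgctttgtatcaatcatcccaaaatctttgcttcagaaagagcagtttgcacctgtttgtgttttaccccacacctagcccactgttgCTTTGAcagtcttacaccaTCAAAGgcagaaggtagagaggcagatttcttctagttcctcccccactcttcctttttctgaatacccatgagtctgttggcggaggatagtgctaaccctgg
Cd3e, chr9:45009562-45009861, minus strand: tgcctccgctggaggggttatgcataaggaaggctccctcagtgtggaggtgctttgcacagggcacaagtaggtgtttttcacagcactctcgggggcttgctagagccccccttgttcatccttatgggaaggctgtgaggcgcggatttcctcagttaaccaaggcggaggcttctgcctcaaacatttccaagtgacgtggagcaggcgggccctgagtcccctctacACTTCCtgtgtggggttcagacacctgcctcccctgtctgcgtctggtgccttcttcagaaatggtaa
Cd247, chr1:165788431-165788730, plus strand: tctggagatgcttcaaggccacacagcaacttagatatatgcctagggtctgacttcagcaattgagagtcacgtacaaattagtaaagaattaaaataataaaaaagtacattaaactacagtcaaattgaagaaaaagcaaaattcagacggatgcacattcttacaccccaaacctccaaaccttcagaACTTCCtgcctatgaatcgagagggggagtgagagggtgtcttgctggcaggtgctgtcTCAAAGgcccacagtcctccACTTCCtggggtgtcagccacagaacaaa
Cd3g and Cd3d are divergent neighbours on chromosome 9 with start sites 1355 bases apart, and the start site of Cd3e lies 27825 bases beyond that of Cd3d. Cd247, which encodes the zeta chain, lies on chromosome 1. The window of Cd3g held 1 GATA core, that of Cd3d 1 ETS core and 2 TCF and LEF cores, that of Cd3e 1 ETS core, and that of Cd247 2 ETS cores and 1 TCF and LEF core. Of all 32851 promoter windows of this length, 23.8% held the ETS core, 16.8% the RUNX core, 16% the TCF and LEF core and 11.2% the GATA core. The 25 genes of the set that had a window had 39 windows, and 17 of these held the ETS core, 10 the TCF and LEF core, 5 the RUNX core and 5 the GATA core. A match is a description of the letters, not a bound site.

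T cell RNA was present in all samples by its defining genes Cd3d, Cd3e and Cd3g, which lay above the floor on 15 of 15 arrays. Cd247, which NK cells also use, lay above it on 14. A pair of arrays stood apart from the rest. Over the tested genes, which are not independent replicates, the mean correlation of an array with the other 14 was 0.790 for 1 mg/kg replicate 1 and 0.817 for 1 mg/kg replicate 4, against 0.848 to 0.888 for the other 13. Their median intensities before scaling, 3.61 and 25.4, were also the lowest and the highest of the 15. Values without both are given beside the results of 1 mg/kg that moved most. The 18S ribosomal RNA control signal differed in mean between the groups, at 11.19 in the vehicle group, 9.97 at 1 mg/kg and 9.42 at 5 mg/kg (log2). It lay between 10.24 and 12.31 with vehicle and between 8.83 and 9.88 at 5 mg/kg, so these groups did not overlap. Used as a covariate, the 18S signal therefore cannot be told apart from the 5 mg/kg dose. Its part in the results was not tested beyond that use. Group size limits the precision of every comparison, and the log2 fold changes of the T cell genes had a median SE of 0.288.

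No T cell gene differed between groups past the threshold, a limma adjusted p of 0.05 over all tested genes. At 5 mg/kg against vehicle 0 of 27 passed, where the share over all tested genes was 0.088%, and the lowest limma adjusted p among them was 0.319. At an unadjusted p under 0.05, 2 of 27 stood out (7.41%, against 7.78% of all tested genes), Cd3g as 1 of 27 with a higher mean (3.51% of all) and Cd27 as 1 of 27 with a lower mean (4.26% of all). For 1 mg/kg against vehicle 0 passed (0.008% of all tested genes), and the lowest limma adjusted p was 0.648. There 3 of 27 were at an unadjusted p under 0.05 (6.03% of all), namely Cd27, Icos and Thy1 with a lower mean (4.06% of all), and 0 with a higher mean (1.97% of all). For 5 mg/kg against 1 mg/kg 0 passed (0% of all tested genes), and the lowest limma adjusted p was 0.535. There 6 of 27 were at an unadjusted p under 0.05 (7.9% of all), namely Cd3d, Cd3e, Cd3g, Lat, Skap1 and Satb1 with a higher mean (5.26% of all), and 0 with a lower mean (2.63% of all). Limma's F test for any difference among the 3 groups gave 0 of 27 past the threshold (0.072% of all tested genes) and 3 at an unadjusted p under 0.05 (8.02% of all). These were Cd27, Cd3g and Cd3e, with limma adjusted p of 0.405, 0.489 and 0.606.

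The mean differences leaned in opposite directions at the 2 doses, weakly so at the higher. With 5 mg/kg 18 of 27 genes had a higher mean than with vehicle (46.6% of all tested genes) and 9 a lower mean (53.4% of all), and the median log2 fold change was 0.16 (all genes, -0.03). With 1 mg/kg 21 of 27 had a lower mean (53% of all) and 6 a higher mean (47% of all), and the median was -0.19 (all genes, -0.02). Between the doses 22 of 27 had a higher mean at 5 mg/kg (47.7% of all) and 5 a lower mean (52.3% of all), and the median was 0.33 (all genes, -0.02). The 3 comparisons share arrays and are not independent of each other. The mean was lowest at 1 mg/kg and highest at 5 mg/kg for 13 of 27 genes (17.6% of all tested genes). For 0 of 27 genes did any of these pairs of groups lie apart without overlap, while in all tested genes this held for 1.11% upward and 1.46% downward at 5 mg/kg against vehicle, 0.184% and 0.72% at 1 mg/kg against vehicle, and 0.92% and 0.24% at 5 mg/kg against 1 mg/kg. Without the 2 arrays that stood apart, the medians were 0.15, -0.25 and 0.34 in the same order. The median at 5 mg/kg against vehicle was 0 with the 18S signal as a covariate, 0.05 with cyclic loess, and 0.02 without vehicle replicate 1. Without the 2 arrays that stood apart, the genes at an unadjusted p under 0.05 numbered 2, 1 and 5. With each array left out in turn that number was 2 to 3, 1 to 5 and 1 to 9, and it was 1 between the doses without replicate 3 or 5 of 1 mg/kg or replicate 5 of 5 mg/kg.

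**Figure D1:**
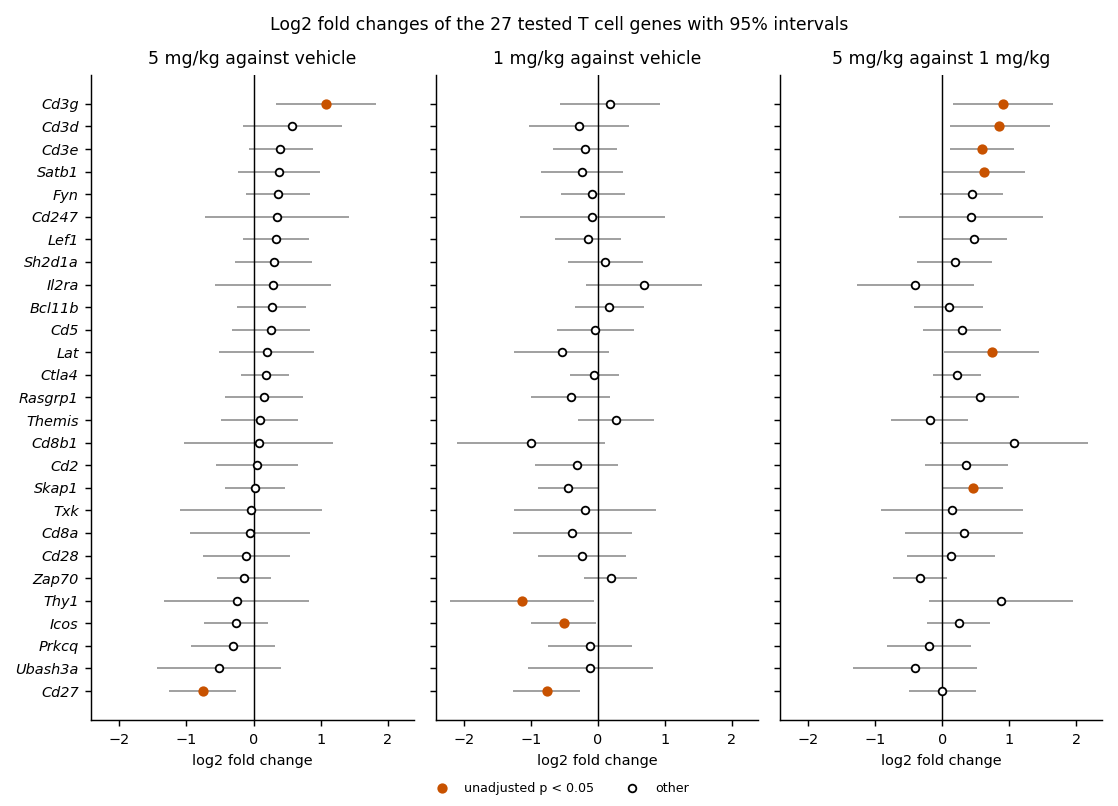
Log2 fold changes with 95% intervals for the 27 tested T cell genes in the 3 comparisons, in order of the difference between 5 mg/kg and vehicle (positive is higher in the first-named group). Filled points mark an unadjusted p under 0.05 in limma. Filled points are Cd3g and Cd27 in the first panel, Thy1, Icos and Cd27 in the second, and 6 genes in the third.

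Cd3g, Cd3d and Cd3e, but not Cd247, held the highest log2 fold changes of the set at 5 mg/kg against vehicle. Of these only Cd3g had an unadjusted p under 0.05. Cd3g (probe set 1419178_at), the gamma chain, was at 6.95, 7.84, 7.10, 7.12 and 6.98 with vehicle, at 8.22, 7.89, 7.21, 7.01 and 6.55 at 1 mg/kg, and at 7.54, 7.58, 8.69, 8.67 and 8.93 at 5 mg/kg (log2 intensity, replicates 1 to 5). Of the arrays at 5 mg/kg 3 lay above all vehicle arrays, and replicates 1 and 2 lay below vehicle replicate 2 but above the other 4 vehicle arrays. The mean was 8.28 ± 0.66 at 5 mg/kg, against 7.20 ± 0.37 with vehicle (SD, n = 5 each), a log2 fold change of 1.08 ± 0.35 (SE; 2.12-fold, 95% interval 0.34 to 1.83; unadjusted p = 0.00697, limma adjusted p = 0.337). The arrays at 1 mg/kg straddled the vehicle range, 2 above it and 1 below, with a log2 fold change of 0.18 ± 0.35 (limma adjusted p = 0.96). Against 1 mg/kg the 5 mg/kg mean was higher by 0.91 ± 0.35 (limma adjusted p = 0.542), and by 1.06 (limma adjusted p = 0.558) without the 2 arrays that stood apart.

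Cd3d (1422828_at), the delta chain, was likewise highest within 5 mg/kg on replicates 3, 4 and 5. It was at 7.67, 8.76, 7.57, 7.93 and 7.59 with vehicle, at 8.11, 8.37, 7.39, 7.22 and 7.05 at 1 mg/kg, and at 7.81, 7.93, 8.44, 8.81 and 9.44 at 5 mg/kg. Replicates 4 and 5 of 5 mg/kg lay above all vehicle arrays and the other 3 did not. The log2 fold changes were 0.58 ± 0.35 at 5 mg/kg against vehicle (limma adjusted p = 0.767), -0.28 ± 0.35 at 1 mg/kg against vehicle (limma adjusted p = 0.932) and 0.85 ± 0.35 at 5 mg/kg against 1 mg/kg (limma adjusted p = 0.563). The last was 0.88 (unadjusted p = 0.0503, limma adjusted p = 0.624) without the 2 arrays that stood apart.

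Cd3e (1422105_at), the epsilon chain that pairs with both of these, was at 7.47, 7.54, 7.92, 7.66 and 7.38 with vehicle, at 7.97, 7.57, 6.95, 7.06 and 7.46 at 1 mg/kg, and at 7.54, 7.92, 8.22, 7.95 and 8.37 at 5 mg/kg. As for Cd3g, replicates 3, 4 and 5 of the higher dose lay above all vehicle arrays. The mean was 8 ± 0.32 at 5 mg/kg, against 7.6 ± 0.21 with vehicle (SD, n = 5 each), a log2 fold change of 0.40 ± 0.22 (limma adjusted p = 0.74). The log2 fold change was -0.19 ± 0.22 at 1 mg/kg against vehicle (limma adjusted p = 0.928). Between the doses it was 0.60 ± 0.22, the smallest p of the set there (unadjusted p = 0.0166, limma adjusted p = 0.535).

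Cd247, which encodes the zeta chain, gave different pictures in its probe sets. The brightest (1420716_at) was at 6.64, 6.80, 5.79, 7 and 6.70 with vehicle, at 4, 6.71, 6.89, 7.62 and 7.33 at 1 mg/kg and at 7.08, 7.04, 6.46, 7.06 and 7.05 at 5 mg/kg, with 1 mg/kg replicate 1 alone at the floor. Its log2 fold changes were 0.35 ± 0.51 at 5 mg/kg and -0.08 ± 0.51 at 1 mg/kg against vehicle (limma adjusted p = 0.94 and 0.988), and the value at 1 mg/kg was 0.38 without the 2 arrays that stood apart. The second brightest set (1426396_at) was at 6.02, 6.64, 5.96, 5.95 and 6.12 with vehicle, at 6.57, 6.40, 5.71, 5.74 and 5.60 at 1 mg/kg and at 5.79, 6.07, 6.88, 6.68 and 6.88 at 5 mg/kg. There replicates 3, 4 and 5 of the higher dose lay above all vehicle arrays, as they did for Cd3g and Cd3e. This set and the dimmest tested one had log2 fold changes of 0.32 ± 0.27 and 0.60 ± 0.43 at 5 mg/kg and of -0.14 ± 0.27 and -0.10 ± 0.43 at 1 mg/kg against vehicle.

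**Figure D2:**
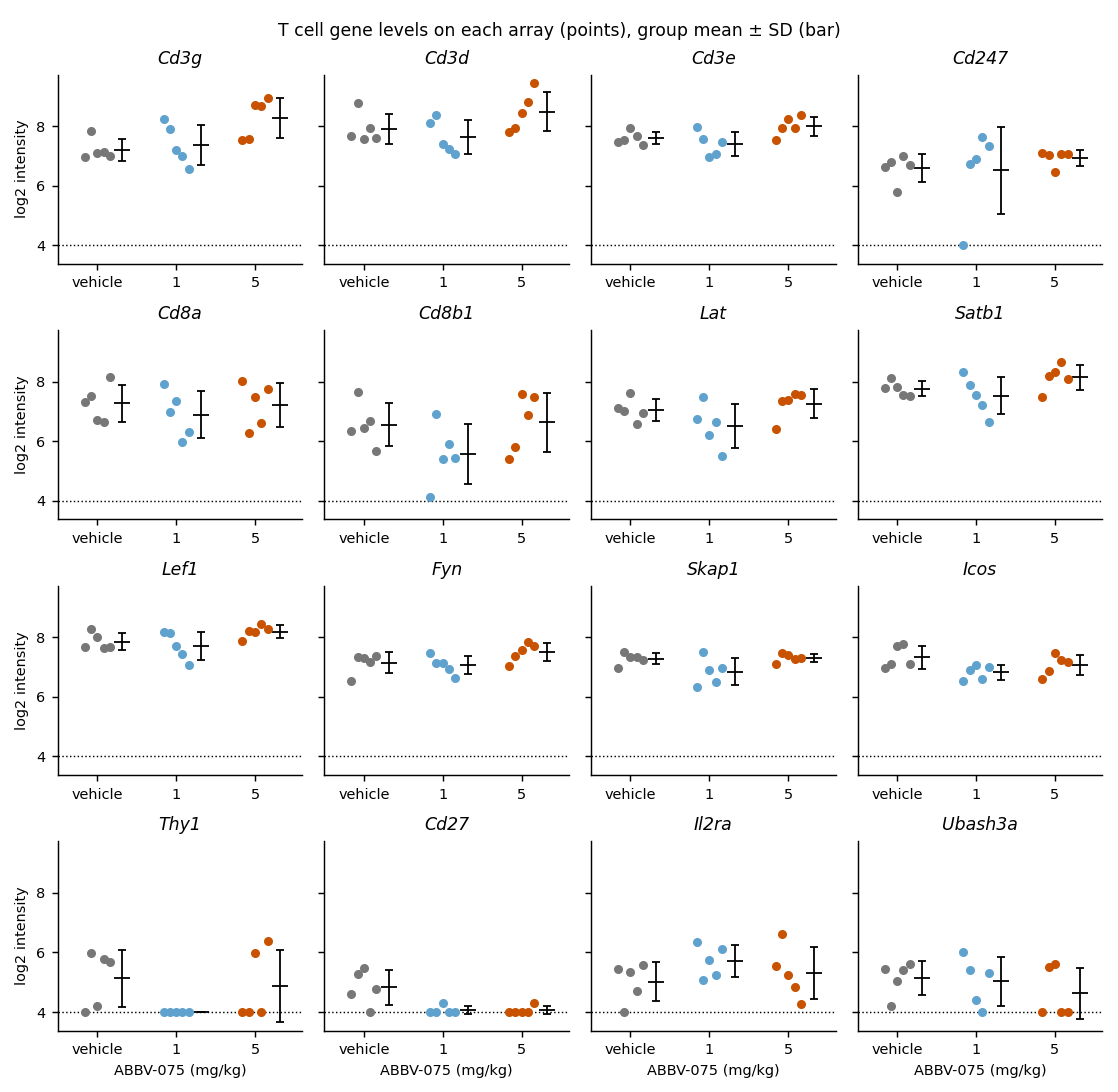
Log2 intensity on each array for 16 T cell genes in the vehicle, 1 mg/kg and 5 mg/kg groups. Points are arrays in replicate order, bars are the group mean ± SD (n = 5), and the dotted line is the floor at 4. At 5 mg/kg Cd3g lay between 7.54 and 8.93, while Cd27 and Thy1 were at the floor on most treated arrays.

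The 3 CD3 genes of chromosome 9 varied together from array to array. Over the 15 arrays Cd3g and Cd3d correlated at r = 0.90 (rho = 0.88; permutation p = 1e-05 and 9e-05, adjusted over 10 relations 0.0001 and 0.0009), the p for r being the smallest that the permutations can give. The value was 0.82 without the 2 arrays farthest from the median and 0.91 after the group means were removed. Cd3d and Cd3e correlated at r = 0.71 (rho = 0.76; permutation p = 0.00307 and 0.0014, adjusted 0.00535 and 0.0035) and Cd3e and Cd3g at r = 0.74 (rho = 0.78; permutation p = 0.00152 and 0.001, adjusted 0.0038 and 0.00333). Both were 0.55 without the 2 farthest arrays, and they were 0.54 and 0.63 within groups. Cd3g correlated with the second brightest and the dimmest tested set of Cd247 at r = 0.91 and 0.81 (rho = 0.80 and 0.65; permutation p = 2e-05 and 0.00038 for r, adjusted 0.0001 and 0.00127, and 0.00051 and 0.0102 for rho, adjusted 0.00255 and 0.017), and at 0.85 and 0.64 without the 2 farthest arrays. With the brightest set of Cd247 it gave r = -0.23 (rho = -0.14; permutation p = 0.441 and 0.63, adjusted 0.441 and 0.63). After the group means were removed, r with the second brightest, the dimmest tested and the brightest set was 0.96, 0.79 and -0.52. The permutations ran over all 15 arrays regardless of group.

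**Figure D3:**
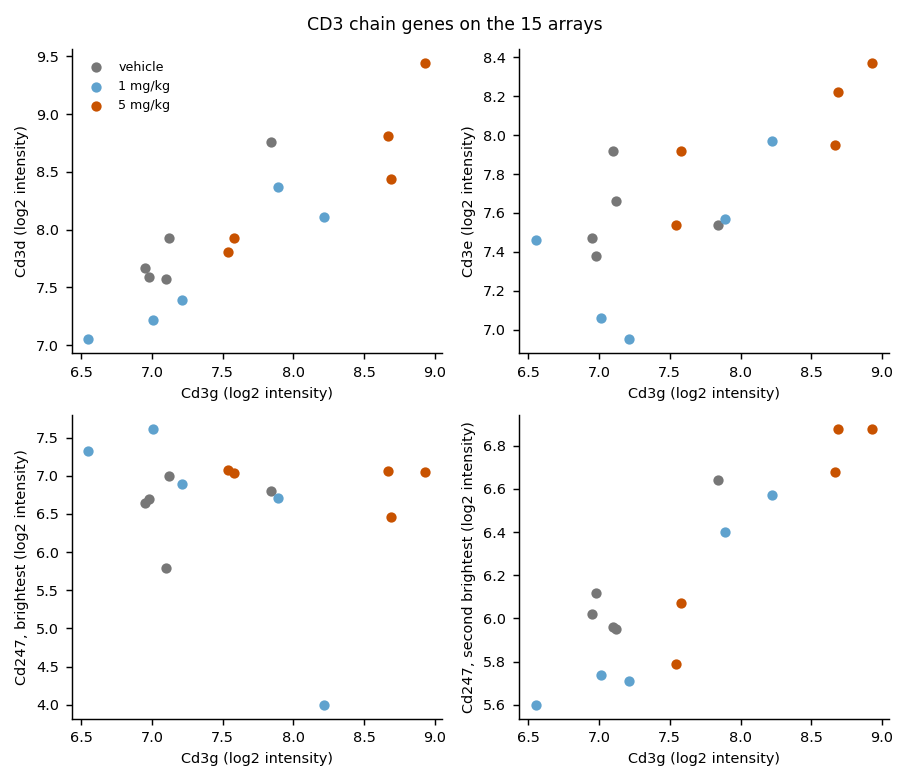
Log2 intensity of Cd3g on the x axis against Cd3d, Cd3e and the brightest and second brightest probe sets of Cd247 on the y axes, with 1 point per array coloured by group. Cd3d (r = 0.90) and the second Cd247 set (r = 0.91) follow Cd3g along a line, and in the brightest Cd247 set (r = -0.23) 1 mg/kg replicate 1 sits at 4.

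The coreceptors gave mixed readings. Cd4, the coreceptor of helper T cells, was at the floor on all 15 arrays in both of its probe sets, so its level could not be measured. Cd8a, the alpha chain of the cytotoxic coreceptor, had 4 tested sets. The brightest (1425335_at) was at 7.33, 7.52, 6.72, 6.63 and 8.16 with vehicle, at 7.91, 6.97, 7.34, 5.96 and 6.30 at 1 mg/kg and at 8.01, 6.29, 7.47, 6.60 and 7.74 at 5 mg/kg, and the groups overlapped widely. Its log2 fold changes against vehicle were -0.05 ± 0.42 at 5 mg/kg (limma adjusted p = 0.994; 95% interval -0.94 to 0.84) and -0.38 ± 0.42 at 1 mg/kg (limma adjusted p = 0.924). The third brightest set (1451673_at) was at 5.93, 6.75, 6.02, 5.73 and 5.50 with vehicle, at 5.18, 6.60, 5.36, 5.95 and 5.77 at 1 mg/kg and at 6.34, 6.35, 6.64, 7.26 and 7.80 at 5 mg/kg. There all arrays at 5 mg/kg lay above 4 of 5 vehicle arrays, with log2 fold changes of 0.89 ± 0.33 against vehicle (unadjusted p = 0.0173, limma adjusted p = 0.444) and 1.10 ± 0.33 against 1 mg/kg (unadjusted p = 0.00456, limma adjusted p = 0.422). The adjusted p of a set that is not the brightest of its gene is over all tested probe sets. The other tested sets of Cd8a (1444078_at and 1440164_x_at) gave 0.16 ± 0.26 and -0.05 ± 0.46 at 5 mg/kg against vehicle. In brightness order the 4 sets correlated with Cd3g at r = 0.32, 0.63, 0.71 and -0.37 (rho = 0.27, 0.74, 0.61 and -0.43; permutation p = 0.243, 0.0118, 0.00321 and 0.18 for r, adjusted 0.27, 0.0168, 0.00535 and 0.225). The adjusted permutation p for rho was 0.363, 0.0047, 0.025 and 0.137, and r without the 2 farthest arrays was 0.18, 0.60, 0.54 and -0.52. After the group means were removed, r was 0.39, 0.70, 0.50 and -0.56.

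Cd8b1, the beta chain, was at 6.34, 7.66, 6.45, 6.67 and 5.68 with vehicle, at 4.14, 6.92, 5.41, 5.92 and 5.45 at 1 mg/kg and at 5.40, 5.82, 7.60, 6.88 and 7.48 at 5 mg/kg. The within-group SD of 0.91 was the widest of the 27 genes, and the arrays of 5 mg/kg were lowest on replicates 1 and 2 and highest on replicate 3. The log2 fold changes were 0.08 ± 0.52 at 5 mg/kg (limma adjusted p = 0.993) and -0.99 ± 0.52 at 1 mg/kg (limma adjusted p = 0.84) against vehicle, and the value at 1 mg/kg was -0.63 without the 2 arrays that stood apart.

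Among receptors of costimulation, Cd27, Icos and Cd28 were each lower in mean at both doses, and Cd27 had the smallest p. Cd27, a costimulatory member of the tumour necrosis factor receptor family, was at 4.62, 5.27, 5.47, 4 and 4.76 with vehicle, at 4, 4, 4.29, 4 and 4 at 1 mg/kg and at 4, 4, 4, 4 and 4.31 at 5 mg/kg. It was above the floor on 7 arrays, with an array of 1 mg/kg only just above it. Of these 7, 4 were vehicle arrays, so Cd27 met the filter of 5 arrays mainly through that group. The same 4 of 5 vehicle arrays exceeded every treated array at either dose. The log2 fold change was -0.76 ± 0.24 at each dose (unadjusted p = 0.00524 at 5 mg/kg and 0.00509 at 1 mg/kg, limma adjusted p = 0.319 and 0.648). With most treated values at the floor, this size depends on where the floor was set. Over the alternatives it ran from -0.93 to -0.50 at 5 mg/kg and from -0.99 to -0.54 at 1 mg/kg.

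Icos, the inducible costimulator, was at 6.52, 6.91, 7.06, 6.60 and 7 at 1 mg/kg, against 6.96, 7.11, 7.72, 7.77 and 7.09 with vehicle. Of the arrays at 1 mg/kg 3 lay below all vehicle arrays, and the log2 fold change was -0.51 ± 0.22 (unadjusted p = 0.0373, limma adjusted p = 0.818). It was -0.34 (unadjusted p = 0.203) without the 2 arrays that stood apart. A second set (1436598_at) gave -0.70 ± 0.30 (unadjusted p = 0.032, limma adjusted p = 0.819). At 5 mg/kg against vehicle the brightest set of Icos gave -0.26 ± 0.22 (limma adjusted p = 0.855).

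Thy1, a surface glycoprotein of mouse T cells, did not exceed 4 on any array of 1 mg/kg, against 4, 5.99, 4.20, 5.79 and 5.68 with vehicle. With these values at the floor, the mean at 1 mg/kg was 2.19-fold lower than the vehicle mean of 5.13 ± 0.95 (SD, n = 5). Thy1 was above the floor on 6 arrays, of which 4 were vehicle arrays and 2 were at 5 mg/kg. It thus met the filter of 5 arrays mainly through the vehicle group. The log2 fold change at 1 mg/kg was -1.13 ± 0.51 (unadjusted p = 0.0402, limma adjusted p = 0.818), with an unadjusted p of 0.0931 without the 2 arrays that stood apart. Vehicle replicate 1 was at the floor too, so this size depends on the floor. It was -1.93 to -0.49 over the 14 alternatives in which Thy1 was tested. The higher dose had 3 arrays at the floor, with 5.99 and 6.39 on replicates 3 and 5. Cd2, which binds CD48 in mouse, lay between 6.23 and 7.87 over all arrays, Cd5, which dampens receptor signals, between 5.29 and 6.65, and Cd28, the main costimulatory receptor, between 5.25 and 6.98. Ctla4, the inhibitory relative of Cd28, was above the floor on 5 arrays. These 4 genes had an unadjusted p above 0.05 in all 3 comparisons, and Cd6, above the floor on 1 array, was too dim for the test.

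Of the kinases and adaptors, Lat and Skap1 had the smallest p between the doses. Lat, the membrane scaffold that Zap70 phosphorylates, was at 6.40, 7.35, 7.38, 7.59 and 7.56 at 5 mg/kg, against 6.75, 7.49, 6.21, 6.66 and 5.49 at 1 mg/kg, and its vehicle values of 6.58 to 7.61 spanned most of both. The log2 fold change between the doses was 0.74 ± 0.33 (unadjusted p = 0.0421, limma adjusted p = 0.614), and 0.86 (unadjusted p = 0.0504) without the 2 arrays that stood apart. Skap1, an adaptor that links the receptor to integrin adhesion, was at 7.09, 7.47, 7.39, 7.27 and 7.31 at 5 mg/kg, against 6.34, 7.52, 6.90, 6.49 and 6.97 at 1 mg/kg. All but replicate 2 of 1 mg/kg lay below the whole 5 mg/kg group. The log2 fold change was 0.46 ± 0.21 (unadjusted p = 0.0466, limma adjusted p = 0.63), but only 0.17 (unadjusted p = 0.402) without the 2 arrays that stood apart, and -0.14 ± 0.29 in a dimmer set (1441322_at). Against vehicle Skap1 at 1 mg/kg was at -0.44 ± 0.21 (limma adjusted p = 0.831), and at -0.15 without these 2 arrays.

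Fyn, a Src family kinase that acts beside Lck, was at 7.02, 7.38, 7.58, 7.83 and 7.71 at 5 mg/kg, against 6.53, 7.34, 7.31, 7.17 and 7.36 with vehicle. Of the arrays at 5 mg/kg 4 lay above all vehicle arrays, and the log2 fold change was 0.36 ± 0.22 (limma adjusted p = 0.773), with 0.34 ± 0.22 in its other set. With the 18S signal as a covariate the value turned to -0.09. Ubash3a, a suppressor of receptor signalling in T cells, was at 4, 5.52, 5.61, 4 and 4 at 5 mg/kg, against 5.44, 4.20, 5.03, 5.42 and 5.61 with vehicle, a log2 fold change of -0.52 ± 0.44 (limma adjusted p = 0.855). With 3 of these 5 treated arrays at the floor, that value was -1.11 to -0.08 over the alternatives. Il2ra, the alpha chain of the interleukin-2 receptor, was at 6.35, 5.09, 5.73, 5.24 and 6.11 at 1 mg/kg, against 5.43, 4, 5.35, 4.71 and 5.58 with vehicle, a log2 fold change of 0.69 ± 0.41 (limma adjusted p = 0.858) that was 0.11 ± 0.21 in its dimmer set.

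The remaining signalling genes are given by their range over the 15 arrays. Zap70, the kinase that docks on the CD3 chains, lay between 9.02 and 10.05 in its brightest set (1439749_at), between 6.22 and 7.25 in another (1440178_x_at) and above the floor on 2 arrays in the dimmest (1422701_at). Which of them best reads the Zap70 transcript was not tested. Prkcq, the protein kinase C theta of the T cell synapse, lay between 7.50 and 9.26, and Rasgrp1, which activates Ras downstream of Lat, between 5.62 and 7.19. Txk, a Tec family kinase, lay between the floor and 6.35, Themis, which tunes receptor signals in thymocytes, between the floor and 5.62, and Sh2d1a, the adaptor SAP, between the floor and 5.27. None of these 6 reached an unadjusted p of 0.05 in any of the 3 comparisons. Trat1, an adaptor of the receptor complex, was too dim for the test and was singled out after its values were seen. It was at the floor on all 10 treated arrays and above it on 4 of 5 vehicle arrays, at 4.52, 5.58, 4, 4.38 and 4.71. With these values at the floor, its mean at each dose was 1.56-fold lower than the vehicle mean of 4.64 ± 0.59 (SD, n = 5). This size depends on the floor. Its second set lay between 4 and 4.17 on all 15 arrays.

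Transcription factors of the lineage were led by Satb1 between the doses. Satb1, a chromatin organiser needed for thymocyte development, was at 7.47, 8.20, 8.31, 8.65 and 8.09 at 5 mg/kg, against 8.31, 7.89, 7.55, 7.23 and 6.66 at 1 mg/kg, with 1 array of the higher dose above all of the lower. The log2 fold change was 0.62 ± 0.29 (unadjusted p = 0.0481, limma adjusted p = 0.631), and 0.38 ± 0.29 against vehicle (limma adjusted p = 0.83). Its other tested sets gave 0.73 ± 0.26, -0.08 ± 0.17, 0.95 ± 0.24 and 0.45 ± 0.29 between the doses. In the set with 0.95 (1436182_at; unadjusted p = 0.0012, limma adjusted p = 0.363) 4 of 5 arrays at 5 mg/kg, at 5.37, 5.97, 6.54, 6.31 and 6.01, lay above all arrays at 1 mg/kg, at 5.17, 5.29, 5.46, 4.93 and 4.58.

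Lef1, a partner of Tcf7 in the response to Wnt signals, was at 7.86, 8.21, 8.17, 8.46 and 8.26 at 5 mg/kg, against 7.67, 8.27, 8.01, 7.65 and 7.68 with vehicle. The log2 fold change was 0.33 ± 0.23 (limma adjusted p = 0.813), with 0.44 ± 0.34 in its second set. Bcl11b, which holds T cells in their lineage, lay between 5.36 and 6.56 over all arrays. Gata3, the factor of type 2 helper cells, was at the floor on all 15 arrays, and Foxp3, the factor of regulatory T cells, was above it on 2 vehicle arrays, at 4.01 and 4.20.

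Probe sets of a gene did not always have the same direction. The 34 genes had 65 probe sets, of which 49 were tested and 7 were at the floor on all arrays, and 13 genes had more than 1 tested set. Of the 22 tested sets other than the brightest, 16 had the sign of the brightest set at 5 mg/kg against vehicle, 13 at 1 mg/kg against vehicle and 20 at 5 mg/kg against 1 mg/kg. Sets of a gene share the arrays and can read different transcripts.

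**Figure D4:**
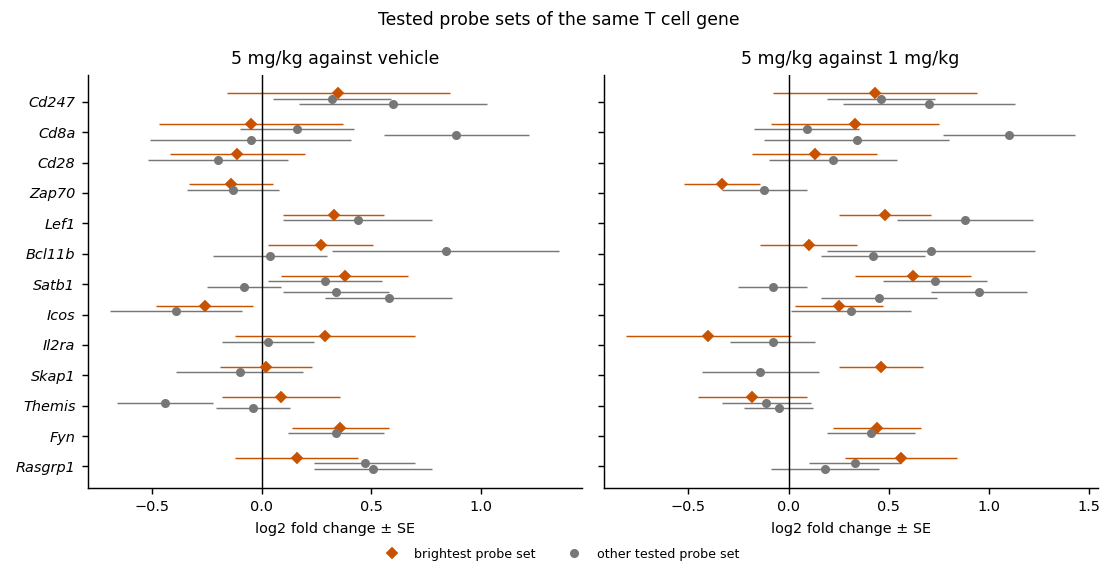
Log2 fold change ± SE of every tested probe set of the 13 T cell genes with more than 1, at 5 mg/kg against vehicle and at 5 mg/kg against 1 mg/kg. Diamonds are the brightest set and circles the others. The third brightest Cd8a set stands at 0.89 and 1.10, away from the brightest at -0.05 and 0.33.

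Other genes of the receptor pathway were followed as a list of 55 that does not overlap the set. The list had a probe set for 48 genes and 46 were tested, of which 0 passed in any comparison by the brightest set of each gene. For 5 mg/kg against vehicle 22 had a higher mean (46.6% of all tested genes) and 24 a lower mean (53.4%), and the median was -0.01. Of these, 2 higher (3.51% of all) and 2 lower ones (4.26% of all) had an unadjusted p under 0.05. For 1 mg/kg 12 were higher (47% of all) and 34 lower in mean (53% of all), the median was -0.21, and 0 were higher (1.97% of all) and 2 lower (4.06% of all) at that level. Between the doses 28 were higher (47.7% of all) and 18 lower in mean (52.3% of all), and the median was 0.08. At that level 8 were higher (5.26% of all), which were Ets1, Cblb, Dgka, Ccr7, Klf2, Ptprc, Malt1 and Pag1, and 0 lower (2.63% of all).

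A dimmer probe set of the pathway gene Sla did pass when every probe set was tested on its own, and it was singled out after its values were seen. Sla encodes an adaptor that dampens T cell receptor signals, and it acts in other blood cells too. This set (1420819_at) was at 4.65, 4.64, 5.56, 5.54 and 4 at 1 mg/kg and at 4, 4, 5.21, 5.40 and 4 at 5 mg/kg, against 6.47, 7.23, 6.97, 6.34 and 6.72 with vehicle. All treated arrays of either dose lay below all vehicle arrays, which held for 1.46% of all tested genes at 5 mg/kg and 0.72% at 1 mg/kg by their brightest sets. Its log2 fold change was -2.22 ± 0.36 at 5 mg/kg (limma adjusted p = 0.016, where 0.162% of all tested probe sets passed) and -1.87 ± 0.36 at 1 mg/kg (limma adjusted p = 0.133), and with 3 arrays of 5 mg/kg at the floor the size depends on it. The brightest set of Sla (1441761_at) gave -0.59 ± 0.35 and -0.27 ± 0.35 (limma adjusted p = 0.736 and 0.941), and the other sets (1420818_at and 1447813_x_at) gave -1.02 and -1.14 at 5 mg/kg (limma adjusted p = 0.648 and 0.0693).

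Dgka, the lipid kinase that ends diacylglycerol signals, was at 8.27, 8.63, 8.8, 8.90 and 8.69 at 5 mg/kg, against 7.89, 8.24, 8.23, 7.77 and 8.04 with vehicle. The groups did not overlap, which held upward for 1.11% of all tested genes, and the log2 fold change was 0.63 ± 0.22 (limma adjusted p = 0.399). Il7r, the survival receptor of naive T cells, was at 6.30, 6.37, 7.13, 6.47 and 6.61 at 5 mg/kg, against 7.16, 7.70, 7.16, 7.22 and 6.89 with vehicle, where 4 of 5 treated arrays lay below all vehicle arrays. Its log2 fold changes were -0.64 ± 0.20 at 5 mg/kg and -0.47 ± 0.20 at 1 mg/kg (limma adjusted p = 0.327 and 0.818), and -0.93 and -0.66 in its second set.

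Ptpn22, a phosphatase that restrains receptor signalling, was at 4.52, 4, 4, 4 and 4.65 at 5 mg/kg and at 4.88, 4, 4, 4 and 4 at 1 mg/kg, against 5.09, 5.88, 5.48, 5.53 and 4 with vehicle. The log2 fold changes were -0.96 ± 0.31 and -1.02 ± 0.31 (limma adjusted p = 0.337 and 0.639), sizes that depend on the floor. Ptpn22 met the filter of 5 arrays mainly through the vehicle group, where 4 arrays exceeded every treated array at either dose. Nfatc3, a calcium-driven transcription factor, was at 0.47 ± 0.22 at 5 mg/kg (limma adjusted p = 0.637). The adaptor Nck1 was at 0.57 ± 0.27 and the phosphatase Ptprc (CD45) at -0.56 ± 0.27 at 1 mg/kg (limma adjusted p = 0.83 each), with 0.52 and 0.04 in their other sets. Without the 2 arrays that stood apart Ptprc was at -0.37.

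Marker genes of other blood cells also varied between these arrays, with 0 past the limma threshold in any list, and their part in the results was not tested. The mean log2 level of the 4 CD3 genes was 7.19, 7.74, 7.10, 7.43 and 7.16 with vehicle, 7.08, 7.64, 7.11, 7.23 and 7.10 at 1 mg/kg, and 7.49, 7.62, 7.95, 8.12 and 8.44 at 5 mg/kg. On 1 mg/kg replicate 1 the mean of 7.08 includes the brightest Cd247 set at the floor of 4, while Cd3d, Cd3e and Cd3g were at 8.11, 7.97 and 8.22. The B cell markers, 11 of 12 with a probe set, had mean log2 levels of 6.4 ± 0.45 (vehicle), 6.2 ± 0.54 (1 mg/kg) and 6.82 ± 0.36 (5 mg/kg; SD, n = 5), with summed intensities of 1154 to 2961, 681 to 2433 and 2140 to 4496. Their median log2 fold change was 0.49 at 5 mg/kg and -0.31 at 1 mg/kg against vehicle, where the 4 CD3 genes had 0.49 and -0.14. The NK cell markers, 11 of 12 with a probe set, leaned downward from vehicle at both doses. For the higher dose 10 of 11 were lower in mean, where 53.4% of all tested genes were. Their median was -0.38, beside -0.03 over all genes. For the lower dose 11 of 11 NK markers were lower in mean, where 53% of all tested genes were. Their median there was -0.47, beside -0.02 over all genes. Their summed intensities were 909 to 1624 in the vehicle group, 647 to 1278 at 1 mg/kg and 614 to 2302 at 5 mg/kg.

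Monocyte markers, 10 of 12 with a probe set, had medians of -0.87 at 5 mg/kg and -0.59 at 1 mg/kg against vehicle, and by their mean level each treated array was under the lowest vehicle array. Their summed intensities were 5352 to 8162 in the vehicle group, 3871 to 6695 at 1 mg/kg and 3288 to 4506 at 5 mg/kg. None of the B cell, NK cell or monocyte markers with a probe set was at the floor on all arrays. Within the higher dose, replicates 1 and 2, which had the lowest CD3 levels, also had neutrophil marker means of 6.40 and 5.75, against 7.02, 7.10 and 7.05 on replicates 3, 4 and 5, and red cell marker means of 10.17 and 10.03, against 9.26, 8.46 and 9.48. Neutrophil markers (9 of 12 tested) summed to 2477 to 3708 in the vehicle group, 1468 to 2829 at 1 mg/kg and 992 to 4039 at 5 mg/kg, and red cell markers (6 of 10) to 21425 to 24250, 19790 to 23884 and 18839 to 23436. Platelet markers (9 of 9) had median log2 fold changes of -0.22 at 5 mg/kg and -0.40 at 1 mg/kg, with summed intensities of 6798 to 16218 in vehicle mice, 8715 to 10647 at 1 mg/kg and 8926 to 13467 at 5 mg/kg.

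**Figure D5:**
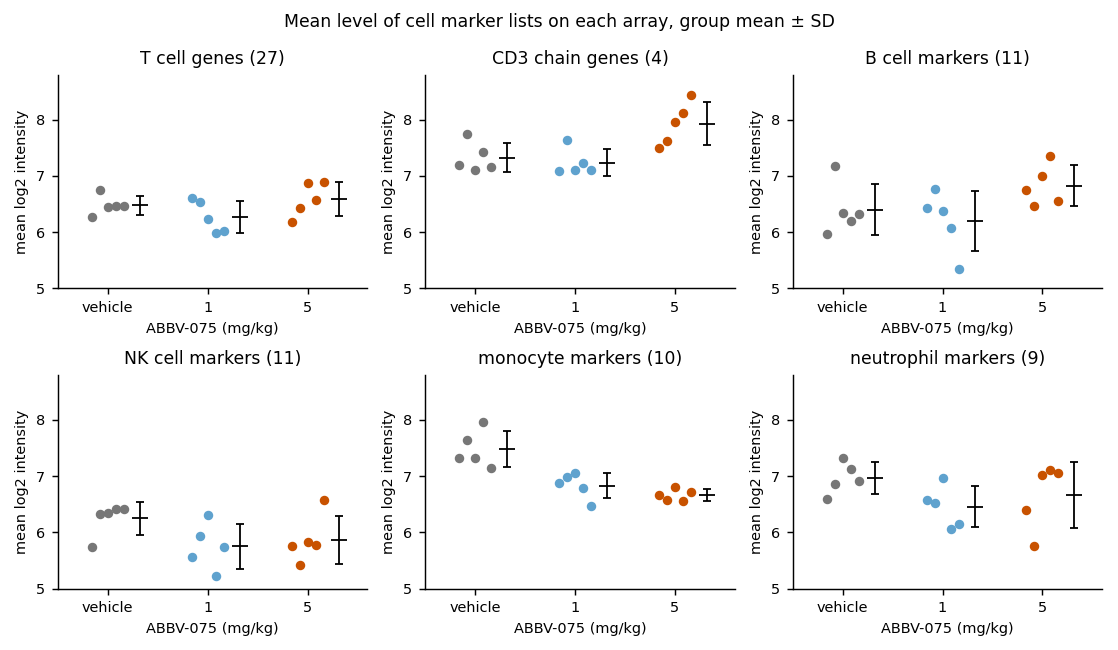
Mean log2 intensity per array of the T cell genes, the CD3 genes and the markers of B cells, NK cells, monocytes and neutrophils, with the number of genes in brackets. Points are arrays and bars the group mean ± SD (n = 5). The CD3 mean reaches 8.44 at 5 mg/kg, and the monocyte means at both doses lie below all vehicle arrays.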

How the data were processed

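Total RNA from whole blood was extracted with Qiazol and RNeasy, and 200 ng went into cRNA labelling by an Affymetrix 3' IVT Plus kit, per the labels' protocols. The authors deposited 1 intensity for each probe set and array, which the range of the values, with some below 0, shows to be linear. The software, the summarisation and any scaling by the authors are not given in the sources used here.

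Control probe sets (64) were left out, the intensities of the other probe sets were quantile normalised between arrays, floored at 16 and taken to log2. After this 52.7% of values lay at the floor. Probe sets annotated with 1 gene alone were named (34945 of 45101), from an annotation that can be old, and a gene took its set of highest mean. All 15 arrays entered 1 fit (lmFit and eBayes of limma 3.58.1, R 4.3.3; two-sided tests), with Benjamini-Hochberg adjustment over 12499 genes. Correlations used 1e+05 permutations with numpy 2.4.6. The fit was tested on simulated data. Alternatives were other scalings, floors, filters, probe set rules, limma options, array weights, a replicate block, the 18S signal as a covariate and leaving out arrays.

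The members and lists were chosen with earlier results of these data known. Named genes were the 8, 6 and 6 T cell genes of smallest p in the 3 comparisons, the CD3 and coreceptor genes, and the 4 pathway genes of smallest p at each dose. Other members are given by levels. Trat1, Foxp3, the Sla probe sets, and the pathway genes listed between the doses, fall outside this rule. Each array was taken to be from 1 mouse, and on that reading p-values measure the spread between mice.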

Additional observations from a re-analysis of the deposited data

Results flagged for a closer look

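In groups of 5 arrays, a highest or lowest array was compared with its nearest neighbour, and the gap was set against the range of the group by Dixon's criterion. Of 80 groups of T cell gene values 13 had such an array, which is 16.2%, against 11.9% of the groups of all tested genes. Chance flags about 1 in 20 groups, but the groups share arrays and some hold values at the floor.

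Vehicle replicate 2 was the highest of its group for Cd3g, at 7.84 against 7.12 for the next array, for Cd2, at 7.87 against 7.03, and for Cd28, at 6.76 against 6.31. Vehicle replicate 1 was the lowest for Prkcq, at 7.75 against 8.33, and for Fyn, at 6.53 against 7.17. Vehicle replicate 3 was the lowest for Txk, at 4.25 against 5.20.

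The brightest set of Cd247 was at 4, the floor, on 1 mg/kg replicate 1, with 6.71 on the next array, and at 6.46 on 5 mg/kg replicate 3, with 7.04 on the next. Lat was at 6.40 on 5 mg/kg replicate 1, with 7.35 on the next, and Themis at 4 on 5 mg/kg replicate 4, with 4.61 on the next.

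For Cd27 at 1 mg/kg replicate 3 (4.29) and 5 mg/kg replicate 5 (4.31), and for Ctla4 at 1 mg/kg replicate 2 (4.03), most of the other arrays of the group were at the floor of 4, which narrows the range the gap is set against.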

How the results depend on the processing

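Under all 15 alternatives and all 15 runs that left out an array, 0 T cell genes passed in any of the 3 comparisons or in limma's F test, for which a fit of only 2 groups was not run. The lowest limma adjusted p of a named T cell gene under any alternative was 0.136, for Cd27 at 5 mg/kg. The median log2 fold change stayed at 0 to 0.21 at 5 mg/kg against vehicle (0 with the 18S signal as a covariate), -0.37 to -0.12 at 1 mg/kg and 0.22 to 0.50 between the doses. Leaving out each array gave 0.02 (without vehicle replicate 1) to 0.23, -0.38 to -0.10 and 0.21 to 0.41. Without scaling the median of all genes at 5 mg/kg against vehicle was 0.102.

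The number of T cell genes at an unadjusted p under 0.05 moved more. At 5 mg/kg against vehicle (2) it was 1 without scaling, with a floor of 32, with the filter at 10 arrays and with the 18S covariate, and 2 to 3 with each array left out. At 1 mg/kg (3) it was 0 without scaling, 5 with cyclic loess, where all 32 genes were tested, 1 with the filter at 10 arrays and 1 without the 2 arrays that stood apart, an alternative chosen after seeing the data. Leaving out each array gave 1 to 5, the 1 without vehicle replicate 4 or 1 mg/kg replicate 4 and the 5 without replicate 2 of 1 mg/kg. Between the doses (6) it was 2 without scaling, 3 with only the 2 groups compared and 2 with the 18S covariate. Leaving out each array gave 1 to 9, with 1 when replicate 3 or 5 of 1 mg/kg or replicate 5 of 5 mg/kg was absent, and 2 and 3 when replicates 4 and 3 of 5 mg/kg were. The cause was not tested.

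Signs turned for Cd8a (-0.05), Cd8b1 (0.08) and Fyn (0.36) at 5 mg/kg and for Cd3g (0.18) and Cd247 (-0.08) at 1 mg/kg. Cd8a was 0.08 without scaling, 0.24 as the mean of its sets and -0.25 to 0.18 with each array left out. Cd8b1 at 5 mg/kg was -0.17 to 0.38 and Cd3g at 1 mg/kg -0.03 to 0.39 with each array left out, and Fyn at 5 mg/kg was -0.09 with the 18S covariate. Cd247 at 1 mg/kg was 0.26 without scaling, 0.09 with arrays scaled to a common median, 0.32 with cyclic loess, 0.12 with a floor of 32, 0.14 with array weights, 0.14 with the 18S covariate, 0.38 without the 2 arrays that stood apart and -0.33 to 0.55 with each array left out. The cause was not tested.

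No clear pairing by replicate number was seen in the values. Same-numbered arrays of different groups correlated at -0.28 to 0.35 in their deviations (median -0.03). Of 15 such pairs 3 were over 0.1, and 4 of 15 arrays correlated best with their own number. These values cannot show whether same-numbered arrays were handled together. With the replicate block the T cell genes past the threshold were 0 in each comparison, those at an unadjusted p under 0.05 were 2, 4 and 5, and the medians 0.16, -0.19 and 0.33. Over all genes, 11 passed at 5 mg/kg against vehicle, 0 with the 18S covariate, which cannot be told apart from this dose, and 65 with array weights.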
